A study of Mus musculus with 8 samples.

Results

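The genes described here are the histone cluster genes of the mouse, which lie in 3 clusters named Hist1, Hist2 and Hist3 and encode the linker histone H1 and the core histones H2A, H2B, H3 and H4. Members were the genes of the count table whose identifier carries a symbol starting with Hist1h, Hist2h, Hist3h or Hist4h in GENCODE M21. This gave 57 of the 37991 genes, of which 45 lie on chromosome 13, 9 on chromosome 3 and 3 on chromosome 11. By symbol, 6 encode H1, 18 H2A, 14 H2B, 7 H3 and 12 H4, and 3 of the 57 are annotated as pseudogenes. The other 13 symbols of that kind in GENCODE M21 were not analysed here.

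RNA was measured by sequencing in Flt3- LSK cells sorted from the bone marrow of C57BL/6J mice. This fraction contains blood stem cells and their earliest progeny. One group is labelled Mut and described as Runx1 deficient, and the other is labelled WT and described in the series text as Runx1f/f, that is, with floxed Runx1. The labels used here do not give the Cre driver, the age of the mice or whether a sample pooled animals. For each of the 2 Mut-labelled and 2 WT samples, 24000 cells were sorted, and sample names link a total RNA library and a library of polyA-selected RNA (here mRNA library) to each.

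Most histone mRNAs made in S phase do not end in a polyA tail. They end just after a short stem-loop, which the stem-loop binding protein (SLBP) holds and which, with the U7 small nuclear RNP, directs the cut that forms the mRNA end. Some cluster genes can also be read past the stem-loop to a polyA signal, giving polyadenylated histone mRNAs, a form described in cells that leave the cycle. Selection on polyA therefore retains some histone transcripts and loses others, and total RNA holds both kinds.

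Gene counts ranged from 967694 to 1218437 in the total RNA libraries, where ribosomal RNA took 93.3 to 94.5% of all counts. They ranged from 35096252 to 37924699 in the mRNA libraries. Of the 2 genes of the LSK gate list, Kit was at 816 and 834 CPM in Mut-labelled and 656 and 703 CPM in WT total RNA libraries. CPM is the usual depth-scaled count unit, here relative to the TMM-scaled sum of gene counts of each library. TMM for CPM was run within each kind of library, so CPM values compare only roughly between kinds. Kit and Ly6a, the other gene, summed to 843 and 846 CPM in Mut-labelled and 675 and 730 CPM in WT total RNA libraries. Ly6a was thus low beside Kit. The log2 fold change of Mut-labelled over WT was -0.24 for Ly6a and 0.28 for Kit in total RNA, without a call. Flt3, which the sort selects against, was at 50.6 and 61.2 CPM in Mut-labelled and 74.0 and 109 CPM in WT total RNA libraries. Runx1 goes against the label: it was at 824 and 906 CPM in the total RNA libraries labelled Mut and 233 and 239 CPM in WT, so directions below are those of the libraries labelled Mut. The part of Runx1 that was deleted is not given in the sources used here, so that counts over the whole gene cannot check the deletion. The libraries labelled Mut also held more counts of mature neutrophil markers. All 10 markers of that list were measured, and they summed to 265 and 99.7 CPM in Mut-labelled and 29.2 and 31.1 CPM in WT total RNA libraries. Of the 10, Retnlg was at 0 in both WT total RNA libraries. In the mRNA libraries, where none of the 10 was at 0, the sums were 522.5 and 136 CPM in Mut-labelled and 38.9 and 46.6 CPM in WT libraries. The 8 erythroid markers summed to 211 and 215 CPM in Mut-labelled and 675 and 668 CPM in WT total RNA libraries. The 7 B and plasma cell markers, immunoglobulin kappa constant chain (Igkc) among them, summed to 281 and 1390 CPM in Mut-labelled and 431 and 5694 CPM in WT total RNA libraries, so that they differed more within a label than between labels. In such bulk samples, fewer cells of a type and less RNA per cell cannot be told apart.

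A histone stem-loop lay 3′ of the stop codon in an annotated transcript of 36 of the 54 coding members, in 35 with every fixed base of the searched pattern and in Hist1h4a with 1 mismatch. It began 21 to 58 bases after the stop codon, with a median of 31. None was found in 18 coding members, but 13 of these have an annotated 3′ UTR under 100 bases. In some it is too short to hold a stem-loop, with 0 bases in Hist1h1b and 1 in Hist1h2af. That none was found thus does not mean that the gene lacks a stem-loop. The annotated transcript of 18 of the 36 stopped within 100 bases of the stem-loop, and that of the other 18 ran on for 100 bases or more. The following sequences were read from the GENCODE M21 transcripts on GRCm38, and capitals mark the 16 bases of the stem-loop. The first 3 belong to members with a high ratio of total RNA to mRNA libraries, and the next 4 to members with a low one, to show that the stem-loop itself is present in both.

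Hist1h4f: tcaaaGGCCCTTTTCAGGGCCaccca

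Hist1h2bk: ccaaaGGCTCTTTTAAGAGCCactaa

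Hist1h1d: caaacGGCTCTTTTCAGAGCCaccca

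Hist1h1c: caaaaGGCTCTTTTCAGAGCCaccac

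Hist1h2ac: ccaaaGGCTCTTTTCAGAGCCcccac

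Hist1h4i: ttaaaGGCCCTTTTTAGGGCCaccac

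Hist3h2a: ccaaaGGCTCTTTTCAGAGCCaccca

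The printed stem-loops lie at chr13:23551291-23551306 on the minus strand for Hist1h4f, and at chr13:22036300-22036315, chr13:23555787-23555802 and chr13:23739512-23739527 on the plus strand for Hist1h2bk, Hist1h1d and Hist1h1c. Those of Hist1h2ac and Hist1h4i lie at chr13:23683477-23683492 and chr13:22040966-22040981 on the minus strand, and that of Hist3h2a at chr11:58955172-58955187 on the plus strand. All are in the 3′ UTR, and these are GRCm38 coordinates, whereas the counts were made on mm9. All 9 H4 stem-loops had a stem that opens with GGCCC, in 6 of them as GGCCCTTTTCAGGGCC. The 27 stem-loops of the other classes opened with GGCTC, in 21 of them as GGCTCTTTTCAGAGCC. Hist3h2a and Hist1h1c hold the same 16 bases as Hist1h1d, and their ratios differed widely, as follows.

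Histone cluster genes were far more abundant in total RNA than in mRNA libraries. Of the 48 members that could be tested over all 8 libraries, 47 were higher in total RNA, 1 did not pass the test and none was lower (edgeR quasi-likelihood test, adjusted p under 0.05), where 7.49% of all 17416 genes tested were called higher and 7.65% lower. At an unadjusted p under 0.05 the count was 47, where 31.2% of all genes passed, and DESeq2 called 47 higher and 0 lower, where it called 12.3% of all genes higher. The median log2 fold change was 7.56 over the members and -0.10 over all genes tested. Members that passed the filter on low counts through the total RNA libraries alone had to differ. Among the 41 members that also passed it in the mRNA libraries, 40 were higher, with a median of 7.55. The members took 1.23 and 0.997% of gene counts in Mut-labelled and 0.956 and 0.990% in WT total RNA libraries, against 0.0233 and 0.0187% in Mut-labelled and 0.0145 and 0.0138% in WT mRNA libraries. The count was 44 when libraries were scaled by the spiked-in ERCC RNA, where 1.22% of all genes were called higher. Within Mut-labelled samples 43 of 48 members were called higher and none lower, where 1.46% and 0.23% of all genes were, and within WT samples 44 of 48 and none, where 3.77% and 1.84% were (edgeR, contrasts added after the data were seen).

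Of the 57 members, 9 were not tested over the 8 libraries. Hist1h2aa and Hist1h2ba, the testis forms of H2A and H2B, were at 0 counts in all 8 libraries, as were Hist2h2aa1, Hist2h2aa2, Hist2h3b and Hist2h3c1. The last 4 share every stretch of 50 bases of their annotated transcripts with another gene of the reference, and how reads that fit several genes were counted is not given in the sources used here, so their levels are uncertain. Hist1h1t, the testis form of H1, had 8 counts over the 8 libraries, Hist1h2bq 4 and Hist1h2br 3. Among members that share under 25% of their stretches of 50 bases with another gene, the median level in total RNA was 182 CPM (n = 14). It was 208 CPM at 25 to 50% (n = 15), 124 CPM at 50 to 75% (n = 13) and 9.63 CPM at 75% or more (n = 15), so that low levels of near-identical copies are uncertain.

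**Figure D1:**
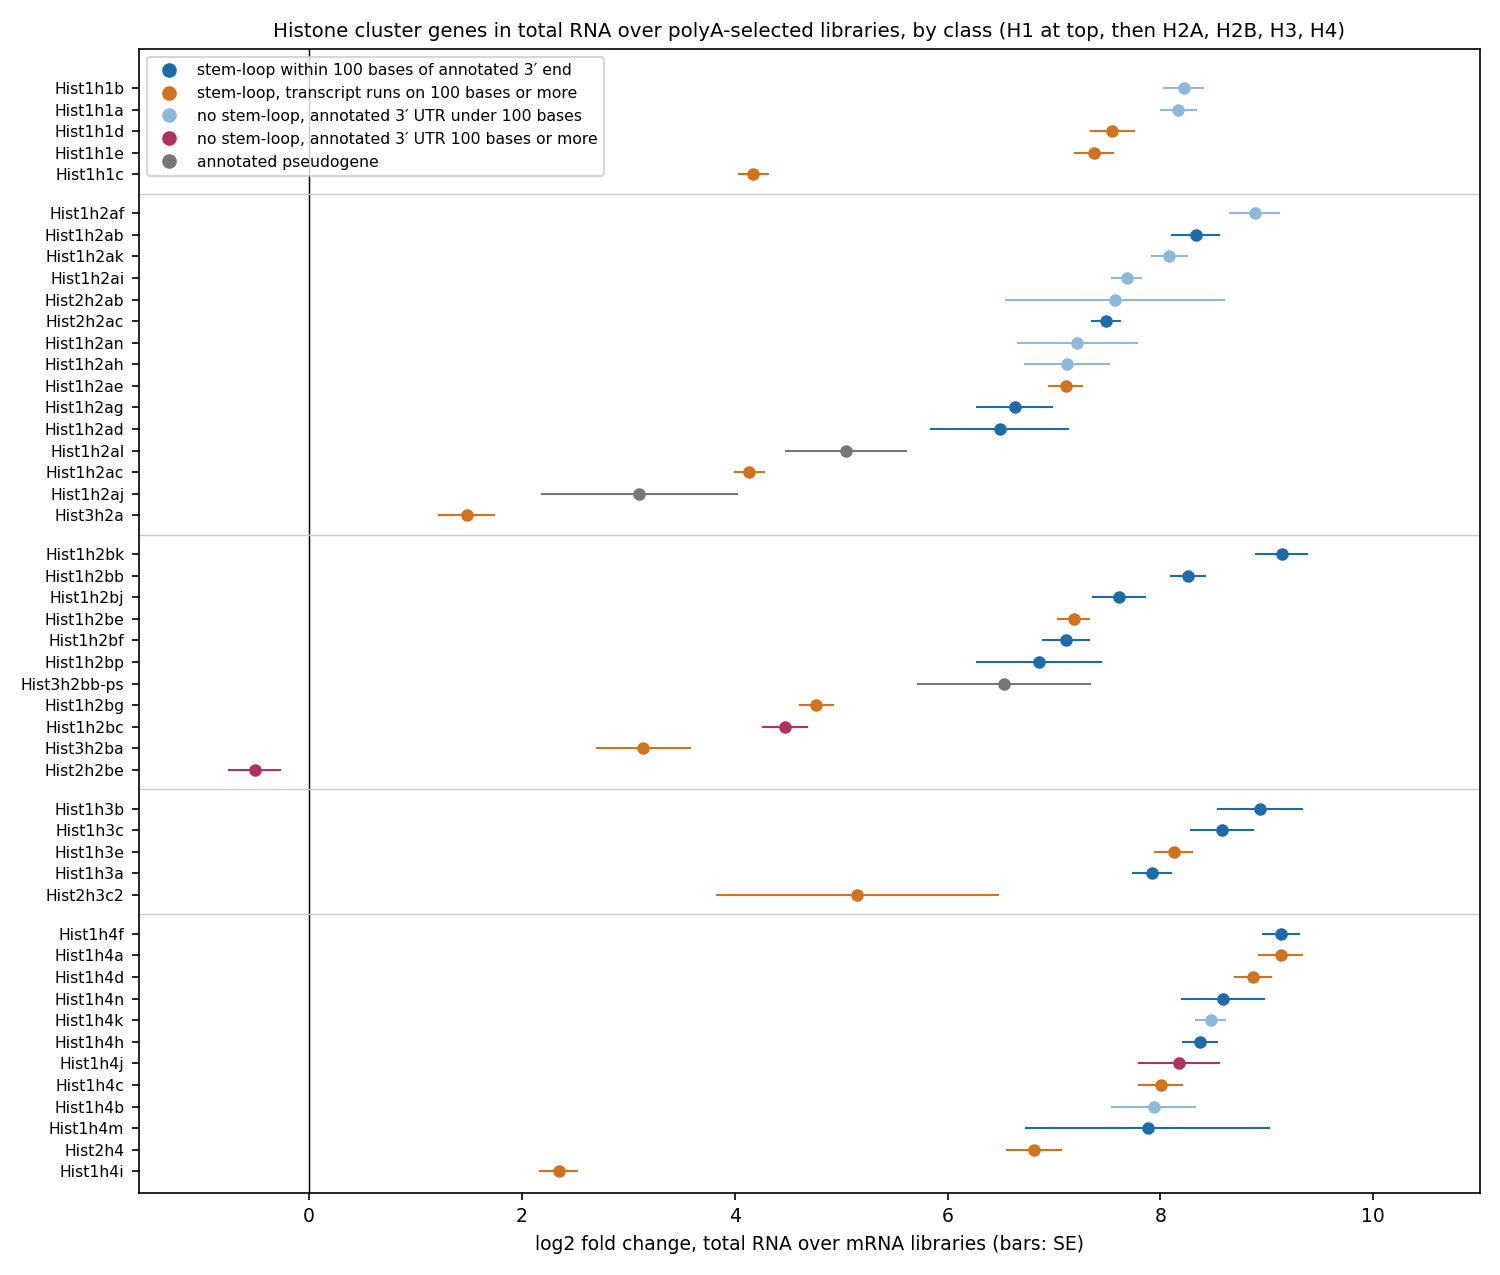
Log2 fold change of total RNA over mRNA libraries (x axis; bars are the SE, fit over 8 libraries) for the 48 tested histone cluster genes, grouped by class and coloured by what the annotated transcript holds at its 3′ end. Most members lie between 6.49 and 9.14, and at least 1 member of each class lies further left, down to Hist2h2be at -0.51.

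Among H1 genes, the ratio split into 1 low and 4 high members. Hist1h1c, which encodes H1.2, had 1283 and 1084 CPM in Mut-labelled and 808 and 850 CPM in WT total RNA libraries, against 89.0 and 67.6 CPM in Mut-labelled and 41.9 and 51.1 CPM in WT mRNA libraries. It was the most abundant member of every library by counts, and all total RNA values lay above all mRNA values. Its log2 fold change was 4.17 (SE 0.14, adjusted p = 5.2e-09, edgeR). Hist1h1d, which encodes H1.3, had 911 and 765 CPM in Mut-labelled and 652 and 651.5 CPM in WT total RNA libraries, and 5.06 and 6.35 CPM in Mut-labelled and 2.32 and 4.29 CPM in WT mRNA libraries. It thus came near Hist1h1c in total RNA and lay far below it in mRNA libraries, with a log2 fold change of 7.55 (SE 0.21). Hist1h1b, which encodes H1.5, had 595 and 415 CPM in Mut-labelled and 393 and 346 CPM in WT total RNA libraries, and 0.968 to 2.22 CPM in the 4 mRNA libraries, with the highest log2 fold change of the class at 8.22 (SE 0.19). Hist1h1a and Hist1h1e, which encode H1.1 and H1.4, lay at 8.16 and 7.37.

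Of 15 tested H2A genes, 14 also passed the filter in mRNA libraries, and all 14 were higher in total RNA, with a median of 7.11. Hist1h2af stood highest, at 8.88 (SE 0.24), with 165 to 228.5 CPM in total RNA and 0.274 to 0.576 CPM in mRNA libraries. Hist1h2ak and Hist1h2ab, the most abundant H2A genes of total RNA, lay at 8.08 and 8.33. Hist1h2ak had 490.3 and 405 CPM in Mut-labelled and 395 and 387 CPM in WT total RNA libraries, against 1.29 to 2.52 CPM in mRNA libraries. Hist1h2ac lay at 4.14 (SE 0.15), with 203 and 163 CPM in Mut-labelled and 103 and 116 CPM in WT total RNA libraries, against 16.5 and 13.2 CPM in Mut-labelled and 4.72 and 5.81 CPM in WT mRNA libraries. Hist3h2a of the cluster on chromosome 11 stood lowest, at 1.48 (SE 0.27, adjusted p = 0.0056, edgeR). It had 25.9 and 21.8 CPM in Mut-labelled and 11.7 and 8.03 CPM in WT total RNA libraries, and 7.95 and 6.59 CPM in Mut-labelled and 4.56 and 5.47 CPM in WT mRNA libraries. These values rest on 8 to 26 counts per total RNA library, and exons of Trim17 on the same strand overlap the gene, so that reads of both genes may be mixed or lost. With ERCC scaling its log2 fold change was 0.81 and did not pass the test (adjusted p = 0.379, edgeR).

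H2B genes held both ends of the order. Of 11 tested, 9 also passed the filter in mRNA libraries, of which 8 were higher in total RNA, with a median of 7.11. Hist1h2bk had 151 and 104 CPM in Mut-labelled and 117 and 123.5 CPM in WT total RNA libraries, and 3 to 12 counts in each mRNA library, or 0.0791 to 0.328 CPM, with the highest log2 fold change of all members at 9.14 (SE 0.25). Hist1h2bb, at 344 and 267 CPM in Mut-labelled and 291 and 248 CPM in WT total RNA libraries, lay at 8.26. Hist1h2bg, at 427 and 321 CPM in Mut-labelled and 222 and 304 CPM in WT total RNA libraries, lay at 4.77 (SE 0.17). The mRNA libraries held it at 17.1 and 17.8 CPM in Mut-labelled and 10.7 and 7.74 CPM in WT. Hist2h2be was the only tested member without a call. It had 18.3 and 17.6 CPM in Mut-labelled and 4.87 and 9.03 CPM in WT total RNA libraries, against 18.2 and 17.2 CPM in Mut-labelled and 18.9 and 15.8 CPM in WT mRNA libraries. By CPM, which was scaled within each kind of library, the 2 kinds overlapped in Mut-labelled samples. In WT the total RNA values lay below the mRNA values. Without a shared scale, the overlap is only rough. The log2 fold change was -0.51 (SE 0.25, adjusted p = 0.182, edgeR), resting on 5 to 21 counts per total RNA library. Fitted within each label, a contrast added after the data were seen, it was 0.18 in Mut-labelled (adjusted p = 0.811, edgeR) and -1.21 in WT samples (adjusted p = 0.085, edgeR).

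Of 5 tested H3 genes, 3 (Hist1h3a, Hist1h3c and Hist1h3e) also passed the filter in mRNA libraries. These 3 were higher in total RNA, with log2 fold changes of 7.92 to 8.58. Hist1h3e and Hist1h3c, the most abundant of them in both kinds, lay at 8.13 and 8.58. Hist1h3e had 550 and 458 CPM in Mut-labelled and 369 and 474 CPM in WT total RNA libraries, against 1.11 to 2.52 CPM in mRNA libraries. Hist1h3c had 360 and 228 CPM in Mut-labelled and 353.5 and 295 CPM in WT total RNA libraries, and 0.383 to 1.29 CPM in mRNA libraries. Hist1h3b and Hist2h3c2 passed the filter through the total RNA libraries alone and so had to differ. Their values were 8.94 (SE 0.40) and 5.15 (SE 1.33), for Hist2h3c2 from total RNA levels of 7.54 and 1.68 CPM in Mut-labelled and 1.95 and 5.02 CPM in WT libraries. The call of Hist2h3c2 did not hold without any 1 of the 4 total RNA libraries (adjusted p of 0.0696 to 0.153, edgeR).

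Of 12 tested H4 genes, 10 also passed the filter in mRNA libraries, and all 10 were higher in total RNA, with a median of 8.42. Hist1h4b and Hist1h4m passed it through the total RNA libraries alone. Hist1h4d had 902 and 676 CPM in Mut-labelled and 713 and 638 CPM in WT total RNA libraries, against 2.26 and 2.35 CPM in Mut-labelled and 1.05 and 1.49 CPM in WT mRNA libraries, a log2 fold change of 8.87 (SE 0.18). Hist1h4f had 552 and 409.8 CPM in Mut-labelled and 459 and 534 CPM in WT total RNA libraries, and 0.628 to 1.60 CPM in mRNA libraries, a log2 fold change of 9.13 (SE 0.18). Hist1h4i stood alone at the low end with 2.34 (SE 0.18, adjusted p = 1.2e-05, edgeR), and the next member, Hist2h4, lay at 6.81. Hist1h4i had 106 and 70.4 CPM in Mut-labelled and 60.4 and 63.2 CPM in WT total RNA libraries, against 20.6 and 15.8 CPM in Mut-labelled and 16.1 and 11.8 CPM in WT mRNA libraries. Among H4 genes it was thus the fourth lowest in total RNA and the highest in mRNA libraries, also per kilobase. With ERCC scaling its log2 fold change of 1.76 did not pass the test (adjusted p = 0.102, edgeR).

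**Figure D2:**
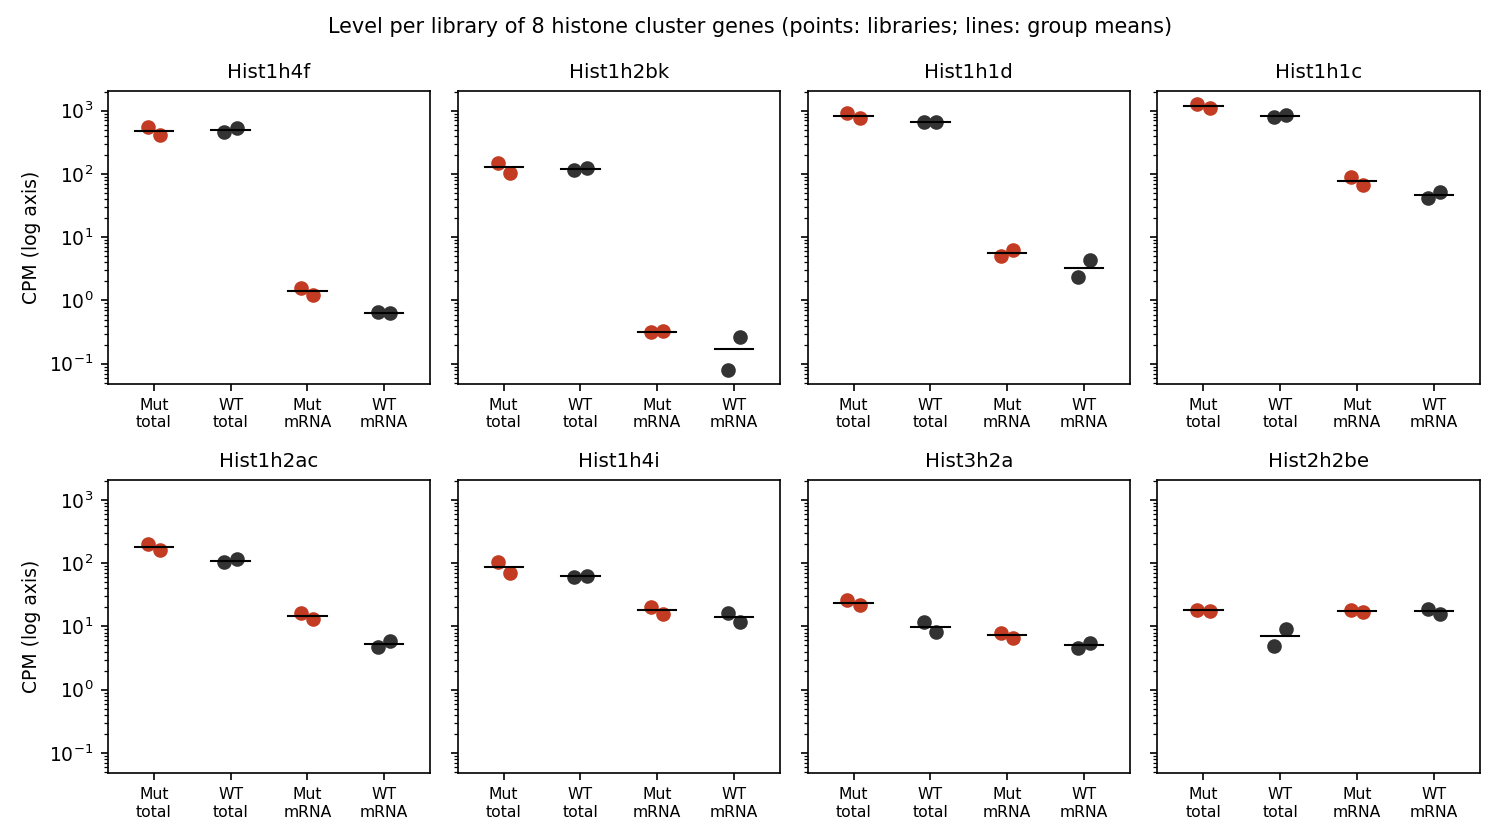
Level in CPM (log axis) of 8 histone cluster genes in each library, with points for libraries and lines for the mean of 2 libraries. CPM was scaled within each kind of library. The log2 fold change of total RNA over mRNA libraries, fitted over all 8 libraries, was 9.13 for Hist1h4f and -0.51 for Hist2h2be.

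Levels per kilobase of coding sequence allow only a rough comparison of different genes, since reads may also fall in exons outside the coding sequence. Annotated exons span 7425 bases for Hist1h1d, 1138 for Hist1h4d and 391 for Hist1h4f, against 663, 309 and 309 coding bases. Near-identical copies may also lose reads, and Hist1h4k shares 71.5% of its stretches of 50 bases with other genes. On this scale Hist1h4d led in total RNA with 2370 ± 379 CPM (SD, n = 4 libraries). The SD spans both labels and the same 4 libraries for each gene, so it does not measure the uncertainty of a difference between genes. Hist1h1c followed at 1582 ± 347, Hist1h4f at 1581 ± 214 and Hist1h4h at 1567 ± 129 CPM per kilobase. These 3 means lay close together, and no test of the order was made. Hist1h4k at 1251 ± 135, Hist1h3e at 1134 ± 182 and Hist1h1d at 1124 ± 185 CPM per kilobase came next. Hist1h2ak led the H2A genes at 1075 ± 123 and Hist1h2bg the H2B genes at 843 ± 223 CPM per kilobase. Among tested coding members the lowest were Hist2h3c2 at 9.92 ± 6.82 and Hist2h2ab at 14.5 ± 5.03 CPM per kilobase, and Hist2h2be and Hist3h2a lay near that end at 33.0 ± 17.4 and 43.2 ± 21.5.

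A low ratio went with what the annotated transcript holds beyond the stop codon. The limits used in this paragraph, 100 bases and a log2 fold change of 5, were chosen after the values were seen, so the counts are a description. Of the 8 coding members under 5 (Hist2h2be, Hist3h2a, Hist1h4i, Hist3h2ba, Hist1h2ac, Hist1h1c, Hist1h2bc and Hist1h2bg), 8 have an annotated transcript that runs on for at least 100 bases past the stem-loop or, where no stem-loop was found, past the stop codon. The same holds for 11 of the other 37 tested coding members. A polyA signal (AATAAA or ATTAAA) lay in the last 40 bases of a transcript in 5 of the 8 and in 7 of the 37. Among the 37, Hist1h2bp, Hist1h3b, Hist1h4b, Hist1h4m, Hist2h2ab and Hist2h3c2 passed the filter through the total RNA libraries alone and so had to differ. Of these, only Hist2h3c2 was counted as running on, so the contrast with 11 of 37 is overstated. Among members that also passed the filter in mRNA libraries, the 13 whose transcript stops within 100 bases of the stem-loop ranged from 6.49 to 9.14, with a median of 8.26. The 15 whose transcript runs on ranged from 1.48 to 9.13, with a median of 7.11. A long annotation alone did not go with a low ratio: Hist1h4d is annotated for 770 bases past its stem-loop and Hist1h1d for 4884, and they lay at 8.87 and 7.55. Together the 8 members took 77.1 and 76.6% of the histone cluster counts in Mut-labelled and 76.6 and 76.6% in WT mRNA libraries, but 17.5 and 18.3% in Mut-labelled and 14.5 and 15.1% in WT total RNA libraries.

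Other gene groups give the scale, beside the 7.49% of all genes called higher and the 7.65% called lower in total RNA. Of 10 replication-independent variant histones in the table, genes outside the clusters that make polyadenylated mRNA, none was higher and 2 were lower in total RNA, with a median log2 fold change of -0.27. At an unadjusted p under 0.05, 6 of the 10 passed, where 31.2% of all genes did. H2afy (macroH2A1) fell by 0.41 and Cenpa, the centromeric H3, fell by 0.67 on the log2 scale. H2afx, the H2A form phosphorylated at DNA breaks and known to make both a stem-loop and a polyadenylated mRNA, had 489 and 365 CPM in Mut-labelled and 439 and 372 CPM in WT total RNA libraries and 376 and 273 CPM in Mut-labelled and 378 and 270 CPM in WT mRNA libraries. Of 8 tested RNAs that carry no polyA tail, 8 were higher in total RNA, with a median of 9.40 and a range of 6.23 to 12.03. Only 4 RNAs of this list passed the filter in mRNA libraries, and those that passed it through total RNA alone had to differ. Among them, Rn7sk, which binds the elongation factor P-TEFb, lay at 8.78 and Rpph1, the RNA of RNase P, at 9.75. The median of the histone cluster genes, 7.56, lay between the medians of these lists and nearer to that of the RNAs without tails. Both of these medians include genes that had to differ. The 26 S phase genes had a median of -0.36, with none higher and 5 lower, Mcm6 and Rrm2 among them, and of 14 G2 and M phase genes none was higher and 7 were lower. Of 14 factors that transcribe, process or degrade histone mRNA, none was higher and 5 were lower, Slbp among them, which fell by 0.56 on the log2 scale.

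H2A and H2B genes often lie head to head, so that 1 stretch of DNA serves as the promoter of both. Of the symbols in GENCODE M21, 12 pairs on opposite strands start within 400 bases of each other, all 12 of an H2A with an H2B gene, and 8 pairs had both members in the table. In 7 of the 8 pairs both members were tested over the 8 libraries, and the ratios of partners were close in some pairs and far apart in others. Hist2h2ac and Hist2h2be start 239 bases apart and lay at 7.49 and -0.51, and Hist1h2ae and Hist1h2bg, 176 bases apart, lay at 7.11 and 4.77. Hist1h2ah and Hist1h2bk lay at 7.12 and 9.14, and Hist1h2ag and Hist1h2bj at 6.63 and 7.61. Partners closer in ratio were Hist1h2ad and Hist1h2bf, at 6.49 and 7.11, Hist1h2an and Hist1h2bp, at 7.22 and 6.86, and Hist1h2ac and Hist1h2bc, 251 bases apart, at 4.14 and 4.47. No test of these differences was made.

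The 250 bases before the start of 50 of the 57 members were found in RefSeq (GRCm38.p6), and 4 motifs were searched on both strands. The octamer ATTTGCAT, bound by OCT1 and known from H2B promoters, was in 7 of 16 H2A, 4 of 11 H2B and none of the H1, H3 and H4 promoters, against 1.61% of all 27025 promoters. CCAAT was in all H1, H2A and H2B promoters, 4 of 6 H3 and 3 of 11 H4 promoters, against 34.5% of all promoters. TATAAA was in 25 of the 50, against 3504 of the 27025, and AAACACA, known from H1 promoters, in 5 of 6 H1 promoters, against 6.22%. A match is only a match of letters in this window. The promoters of the H2A partners of the first and last pair above, Hist2h2ac and Hist1h2ac, are shown to compare their layout, with capitals for the octamer, CCAAT and TATAAA on either strand, where CCAAT read on the other strand is ATTGG and the octamer ATGCAAAT.

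Hist2h2ac: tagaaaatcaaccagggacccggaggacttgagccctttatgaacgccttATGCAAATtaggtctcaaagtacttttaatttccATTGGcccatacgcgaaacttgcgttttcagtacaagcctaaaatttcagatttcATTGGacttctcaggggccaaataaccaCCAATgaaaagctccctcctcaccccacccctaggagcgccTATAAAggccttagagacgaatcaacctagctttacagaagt

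Hist1h2ac: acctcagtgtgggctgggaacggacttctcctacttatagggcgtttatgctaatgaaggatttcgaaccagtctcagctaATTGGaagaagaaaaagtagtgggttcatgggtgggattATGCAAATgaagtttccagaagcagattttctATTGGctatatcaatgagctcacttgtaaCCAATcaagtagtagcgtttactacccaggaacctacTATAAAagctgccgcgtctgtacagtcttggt

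These windows are chr3:96220881-96221130 for Hist2h2ac and chr13:23683960-23684209 for Hist1h2ac, both on the minus strand of GRCm38.p6. Each holds 1 octamer, 3 CCAAT and 1 TATAAA, none of which overlap. The genes differed in their ratio of total RNA to mRNA libraries, 7.49 against 4.14 on the log2 scale.

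The design of the study compares cells labelled Mut with WT cells. In total RNA, 1 of 45 tested members, Hist1h2ac, was higher in Mut-labelled libraries and none was lower (edgeR quasi-likelihood test, adjusted p under 0.05), where 2.54% of all 10546 genes tested were called higher and 1.68% lower. In the mRNA libraries, 1 of 41, again Hist1h2ac, was higher and none was lower, where 1.75% of 17128 genes were called higher and 1.89% lower. At an unadjusted p under 0.05, 10 members passed in total RNA and 5 in mRNA libraries, against 14.8% and 15.7% of all genes. DESeq2 called 0 members in total RNA, where it called 1.34% of all genes higher and 0.588% lower. In mRNA libraries it called 3 members higher, Hist1h1c, Hist1h2ac and Hist1h2bg, and 0 lower, where it called 4.38% of all genes higher and 5.04% lower. The median log2 fold change over the members was 0.16 in total RNA and 0.62 in mRNA libraries, against -0.00 and -0.01 over all genes, and 32 members were positive in each kind. Without Mut-labelled library 1, the median was 0.01 in total RNA, with 23 of 45 members positive, and 0.27 in mRNA libraries. In total RNA it was 0.34 without Mut-labelled library 2, 0.29 without WT library 2 and 0.09 without WT library 1. In total RNA 16 members (35.6%) had both Mut-labelled values above both WT values and 3 had them below, where 22.5% and 21.4% of all genes did so. In mRNA libraries the counts were 18 (43.9%) above and 2 below, where 21.4% and 23.1% of all genes did so. With ERCC scaling the median of all genes moved to -1.10 in total RNA and -0.38 in mRNA libraries, and that of the members to -0.87 and 0.10, with 2 of 45 members positive in total RNA and 26 of 41 in mRNA libraries. The direction of the members thus depended on the scaling.

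Hist1h2ac had 203 and 163 CPM in Mut-labelled against 103 and 116 CPM in WT total RNA libraries, and 16.5 and 13.2 CPM in Mut-labelled against 4.72 and 5.81 CPM in WT mRNA libraries. Both Mut-labelled values lay above both WT values in each kind. The log2 fold change was 0.73 in total RNA (SE 0.18, adjusted p = 0.0229, edgeR) and 1.50 in mRNA libraries (SE 0.27, adjusted p = 0.0467, edgeR). The total RNA call did not hold with DESeq2 (adjusted p = 0.201), nor in edgeR without Mut-labelled library 1 (adjusted p = 0.207) or WT library 1 (adjusted p = 0.0955). The mRNA call did not hold in edgeR without WT library 1 (adjusted p = 0.124), Mut-labelled library 1 (adjusted p = 0.0773) or Mut-labelled library 2 (adjusted p = 0.0518), nor without TMM scaling (adjusted p = 0.0523) or with ERCC scaling (adjusted p = 0.999). With ERCC scaling the total RNA value turned to -0.30, against the median of -1.10 over all genes. The gene lies at chr13:23681467-23683948 on the minus strand (GRCm38), and small annotated genes (Gm24991 and Gm44350) overlap its exon. Its head-to-head partner Hist1h2bc was at 0.16 in total RNA and 0.02 in mRNA libraries on the same log2 scale, without a call.

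Linker histone genes were the class with the highest median in total RNA. Of 5 tested H1 genes, none was called by edgeR in either kind in the reported fits. In each kind, 4 lay above WT without overlap, where 22.5% of all genes in total RNA and 21.4% in mRNA libraries did so. The median log2 fold change was 0.45 in total RNA and 0.75 in mRNA libraries. With the replicate block, edgeR called Hist1h1b, Hist1h1c, Hist1h1d and Hist1h1e higher in total RNA, where it called 4.67% of all genes higher. In mRNA libraries it called Hist1h1c, where it called 7.77% of all genes higher. Hist1h1c, with the values given above, was at 0.51 in total RNA (SE 0.15, adjusted p = 0.0702, edgeR) and 0.75 in mRNA libraries (SE 0.19, adjusted p = 0.11, edgeR), where DESeq2 called it (adjusted p = 0.0108). Hist1h1e had 821 and 641 CPM in Mut-labelled against 499 and 502 CPM in WT total RNA libraries, a log2 fold change of 0.55 (SE 0.16, adjusted p = 0.0718, edgeR). Hist1h1a had 435 and 329 CPM in Mut-labelled against 406 and 381 CPM in WT total RNA libraries, so that the groups overlapped, at -0.05. Without the filter on low counts, edgeR called Hist1h1c (adjusted p = 0.021) and Hist1h1e (adjusted p = 0.0194) in total RNA, and with ERCC scaling Hist1h1e was at -0.49. Without Mut-labelled library 2, total RNA log2 fold changes were 0.69 for Hist1h1b, 0.64 for Hist1h1c, 0.72 for Hist1h1e, 0.89 for Hist1h2ac and 0.71 for Hist1h2bg. The median over the tested members was 0.34 in that fit and 0.01 without Mut-labelled library 1, where Hist1h2ac was at 0.57. Without WT library 2, Hist1h2ac was at 0.82 and Hist1h2bg at 0.75. Without WT library 1, Hist1h4m was at 6.80, a gene of 14 and 14 counts in Mut-labelled and 12 and 0 counts in WT libraries. Each of these fits leaves only 1 library in a label. Apart from Hist1h2ac without Mut-labelled library 1, the genes named for them were picked by their test results in these fits. Their values are thus not typical of the members.

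**Figure D3:**
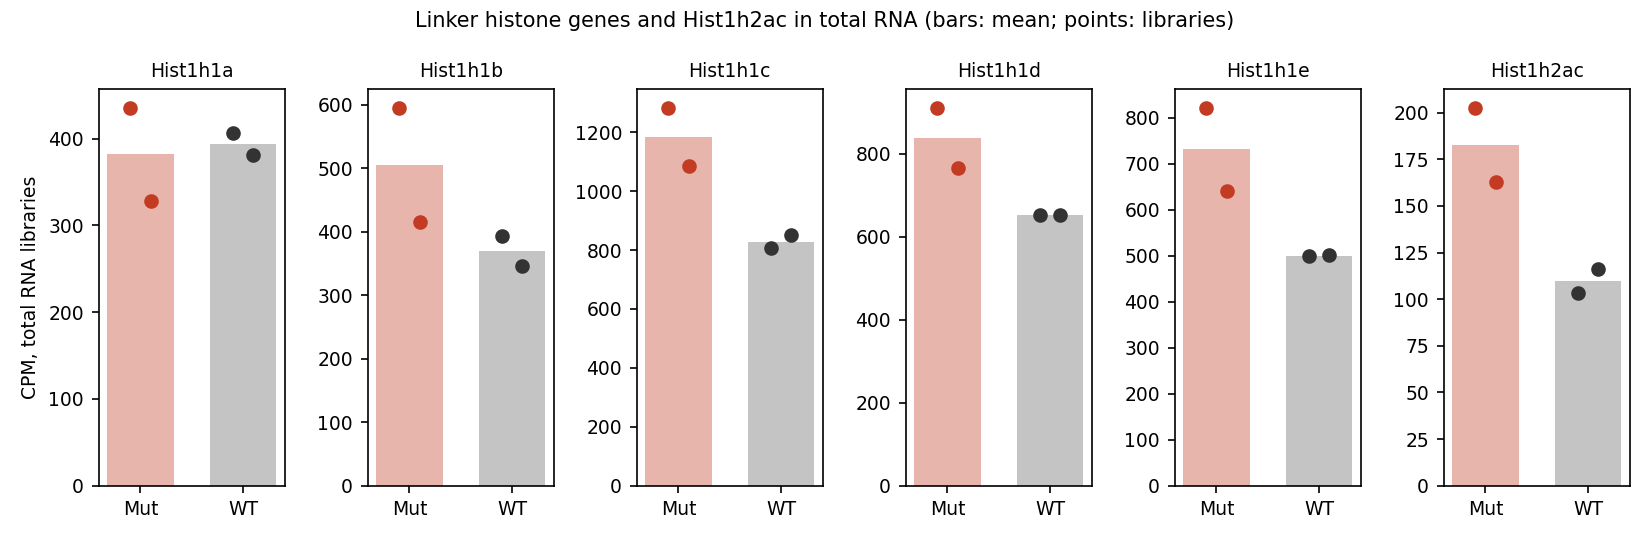
Level in CPM in total RNA libraries of the 5 tested linker histone genes and Hist1h2ac, with bars for the mean of 2 libraries and points for the libraries. Mut-labelled library 1 is the higher of the 2 in every panel, and only Hist1h1a overlaps between the labels.

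Core histone genes other than Hist1h2ac were not called by edgeR in the reported fits, and DESeq2 called Hist1h2bg in mRNA libraries (0.93, adjusted p = 0.0149). With the replicate block, edgeR also called Hist1h2bg in both kinds and Hist3h2a in total RNA. That block called 4.67% of all genes higher in total RNA and 7.77% in mRNA libraries. In total RNA the medians were 0.19 for 13 H2A, 0.13 for 11 H2B, -0.13 for 4 H3 and 0.16 for 12 H4 genes. In mRNA libraries they were 0.77 for 14 H2A, 0.03 for 9 H2B, -0.08 for 3 H3 and 0.41 for 10 H4 genes. Hist1h4d, the leading H4 gene, was at 0.22 in total RNA (SE 0.17, adjusted p = 0.613, edgeR) and 0.86 in mRNA libraries (SE 0.43, adjusted p = 0.444, edgeR). Hist1h3c was at -0.15 and -0.16 in the same order, and its labels overlapped in both kinds. Hist2h2be had 18.3 and 17.6 CPM in Mut-labelled against 4.87 and 9.03 CPM in WT total RNA libraries, at 1.36 (SE 0.50, adjusted p = 0.174, edgeR), and was at 0.03 (SE 0.21) in mRNA libraries. Hist3h2a was at 1.25 in total RNA (SE 0.43, adjusted p = 0.135, edgeR). As shares of the histone cluster counts of total RNA, H1 genes took 31.5 and 31.8% in Mut-labelled and 28.6 and 27.5% in WT libraries. H3 genes took 9.52 and 8.69% in Mut-labelled and 10.3 and 10.5% in WT libraries, and H4 genes 28.9 and 28.9% against 30.9 and 30.8%. H2A genes took 17.58 and 17.54% in Mut-labelled and 17.73 and 18.04% in WT libraries. The shares of these 4 classes did not overlap between the labels, and those of H2B genes did. They are parts of the same sum, so a higher share of a class lowers the others. Hist1h1c alone took 9.99 and 10.6% in Mut-labelled and 8.37 and 8.54% in WT total RNA libraries. By level in total RNA, 22.5% of all genes lay above WT without overlap and 21.4% below. No test of the shares was made.

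**Figure D4:**
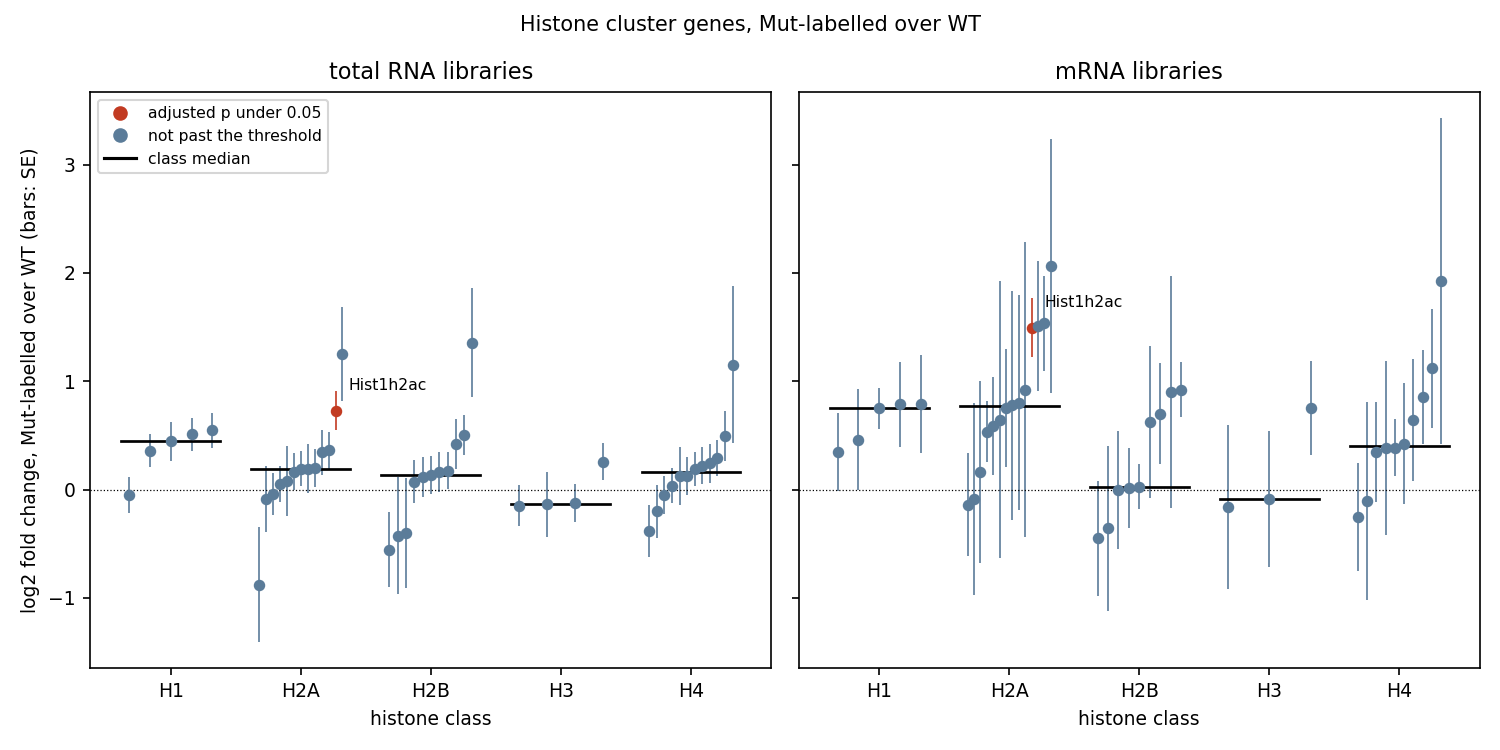
Log2 fold change of Mut-labelled over WT (y axis; bars are the SE, fit over 4 libraries) for each tested histone cluster gene by class, in total RNA (left) and mRNA libraries (right), with lines for class medians. Hist1h2ac is called in both, and the class medians run from -0.13 for H3 to 0.45 for H1 in total RNA.

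Genes that go with histone synthesis did not pass the test between the labels. Of all genes, 2.54% were called higher and 1.68% lower in total RNA, and 1.75% and 1.89% in mRNA libraries. At an unadjusted p under 0.05, 14.8% of all genes passed in total RNA and 15.7% in mRNA libraries. Of 26 S phase genes none was called in either kind, with medians of 0.03 in total RNA and -0.07 in mRNA libraries. At an unadjusted p under 0.05, 0 passed in total RNA and 2 in mRNA libraries, and their summed level was 3793 and 2741 CPM in Mut-labelled against 3124 and 3100 CPM in WT total RNA libraries. Mut-labelled library 1, in which the histone cluster share was highest, thus also had the highest S phase sum of the total RNA libraries, and whether this bears on the histone values was not tested. Of 14 G2 and M phase genes none was called, with medians of 0.09 and 0.03, and at an unadjusted p under 0.05, 2 passed in total RNA and 0 in mRNA libraries. Of the histone mRNA factors, 13 tested in total RNA and 14 in mRNA libraries, none was called, with medians of 0.12 and -0.04, and 1 and 0 passed at an unadjusted p under 0.05. Of the variant histones, 9 tested in total RNA and 10 in mRNA libraries, 1 and 0 were called, with medians of 0.03 and 0.01. At an unadjusted p under 0.05, 4 and 5 passed. Their changes went both ways, in total RNA from -0.73 for H1fx to 0.60 for H2afz. The called gene was H3f3b, which encodes the replacement histone H3.3. It had 968 and 1011 CPM in Mut-labelled against 613 and 704 CPM in WT total RNA libraries (log2 fold change 0.59, adjusted p = 0.032, edgeR). The neutrophil marker sums given above were higher in the same libraries, and their part in the histone values was not tested.

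An interaction term fitted over the 8 libraries asked whether the difference between the labels was the same in both kinds. None of the 48 members was called by edgeR, where 0.0% of all genes were called, and 7 members passed at an unadjusted p under 0.05, where 3.94% of all genes did. DESeq2 also called 0 members, where it called 0.103% of all genes lower. The members' median was -0.42 and that of all genes 0.04. With the sorted sample as a block, as the shared names allow, 3 members were called lower, where 0.614% of all genes were, which means a smaller difference in total RNA than in mRNA libraries. Hist1h2ab was at -1.49 (adjusted p = 0.000698, edgeR with block), Hist1h2ae at -1.13 (adjusted p = 0.0099, edgeR with block) and Hist1h4f at -1.12 (adjusted p = 0.0226, edgeR with block). Hist1h2ab had 319 and 200.3 CPM in Mut-labelled against 283 and 247 CPM in WT total RNA libraries, where the labels overlapped. In mRNA libraries it had 1.86 and 1.15 CPM in Mut-labelled against 0.606 and 0.445 CPM in WT, without overlap. For Hist1h2ac, without the block, the interaction was -0.72 (SE 0.27, adjusted p = 1, edgeR), so that its larger difference in mRNA libraries was not called.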

How the data were processed

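RNA was sequenced from 4 sorted samples (2 Mut-labelled, 2 WT), each as a total RNA and an mRNA library. The values are read counts per gene deposited by the authors as 1 table. Per the submitters' processing notes, TopHat, featureCounts, edgeR and the build mm9 were used, without versions. The strand setting and the treatment of reads that match several genes were not stated there. The table holds 37991 genes, 92 ERCC spike-in rows and 3 ribosomal rows, and library sizes were the sums over genes, with ERCC and ribosomal rows left out. Symbols, stem-loops and coordinates came from GENCODE M21 (GRCm38) by gene identifier, and nothing was converted between builds. For 32919 genes a symbol was found.

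Counts were tested with the quasi-likelihood test of edgeR 4.0.16 in R 4.3.3, with TMM scaling, filterByExpr and Benjamini-Hochberg adjustment over all genes tested, and a call means an adjusted p under 0.05. Mut-labelled was compared with WT within each kind of library (4 libraries each). Total RNA against mRNA and the interaction were fitted on the 4 group means of all 8 libraries. CPM used TMM library sizes set within each kind of library, whereas the fits over 8 libraries scaled all 8 together. SE is the absolute log2 fold change divided by the square root of F. Promoters were 250 bases from RefSeq, and a polyA signal was searched in the last 40 bases of a transcript. Alternatives were DESeq2 1.42.0, its size factors, ERCC scaling, no TMM, no filter, a block and leaving out each library. The block was the replicate number in the fits between the labels and the sorted sample in the other fits. The scripts were tested on simulated data with known changes. For Mut-labelled against WT in mRNA libraries, 17.1% of the calls were false, and 30.6% of changes of 1 on the log2 scale were recovered. In total RNA libraries these values were 5.13% and 57.8%, and for total RNA against mRNA libraries 7.07% and 83.0%. A change of 2 was recovered in 71.9%, 91.8% and 100% in the same order. Calls between the labels in mRNA libraries are thus less certain than the threshold says, and many changes may be missed.

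The members and gene lists were chosen with earlier results of these data known. Members were named if called between the labels or in the interaction, if among the 2 most abundant of their class in either kind of library, or if highest or lowest of their class in the total RNA to mRNA ratio. Hist1h1a, Hist1h1e, Hist1h4m, Hist2h4, the other members with a low ratio, the partners in head-to-head pairs and the members leading per kilobase were named after their values were seen. Both kinds of library of a sample share its name, and deviations from the group mean correlated between kinds over 10509 genes (r = 0.37 in WT and 0.43 in Mut-labelled samples), so the sorted sample pairs them. The labels do not say that samples came from separate mice, so the p-values reflect sample-to-sample spread that may be purely technical. Total RNA libraries were far shallower in gene counts, which limits genes with few counts.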

Additional observations from a re-analysis of the deposited data

How the results depend on the processing

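For total RNA against mRNA libraries, 47 members were higher under each alternative that kept all 8 libraries, except ERCC scaling (44). Over these alternatives, 1.22 to 12.3% of all genes were called higher. When 1 library was left out, the members' median log2 fold change was 7.49 to 8.02. Between the labels, 1 member was higher in mRNA libraries in the reported fit, where 1.75% of all genes were called higher. The number was 0 with ERCC scaling (0.093% of all genes) and without TMM (1.67%). It was 3 with DESeq2 (4.38%) and 3 with the replicate block (7.77%). When 1 library was left out, the members' median log2 fold change was 0.27 to 0.78. In total RNA it was 0 with ERCC scaling and with DESeq2, 3 without the filter and 7 with the replicate block, and 0 to 5 when 1 library was left out. Numbers shared between Mut-labelled and WT samples are not known to pair them: with 2 pairs, deviations correlated at 0.32 in mRNA and 0.22 in total RNA libraries, and the block raised calls over all genes in mRNA libraries to 1331 higher and 1539 lower, against 300 and 324. In the interaction the block was the sorted sample, and with it 3 members were lower, where 0.614% of all genes were, against 0 without it. The cause of these moves was not tested.

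With ERCC scaling, 30 of 45 members turned to negative in total RNA and 6 of 41 in mRNA libraries. Among those named by rule, the turned ones in total RNA were Hist1h1b (-0.58), Hist1h1c (-0.53), Hist1h1d (-0.69), Hist1h2ac (-0.30), Hist1h2af (-0.82), Hist1h2ak (-0.86), Hist1h2bb (-0.88), Hist1h2bg (-0.49), Hist1h2bk (-0.94), Hist1h3e (-0.77), Hist1h4d (-0.82) and Hist1h4i (-0.51). In mRNA libraries Hist2h2be turned to -0.31 with ERCC scaling and -0.0055 without TMM, and Hist1h2bb, at -0.0010, turned to 0.0029 with DESeq2 and its size factors and 0.0025 without the filter. When 1 library was left out of total RNA, Hist1h2ab ranged from -0.40 to 0.28, Hist1h2af from -0.039 to 0.43, Hist1h2bb from -0.0046 to 0.36, Hist1h2bk from -0.20 to 0.34, Hist1h3b from -0.88 to 0.42, Hist1h3c from -0.50 to 0.16 and Hist1h4f from -0.27 to 0.16. In mRNA libraries Hist1h2af ranged from -0.66 to 0.50, Hist1h2bb from -0.23 to 0.20, Hist1h3c from -1.28 to 0.47 and Hist2h2be from -0.085 to 0.16. None of these calls rests on more than 2 samples per label, and a left-out library leaves 1.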
